A study of Homo sapiens with 8 samples.

Results

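U-CH1 and MUG-Chor1 are human cell lines grown from chordomas, and the question here is where their RNA responses to tumour necrosis factor alpha (TNF) diverged. The quantity described is the TNF effect in MUG-Chor1 minus the TNF effect in U-CH1, computed for each gene from all 8 of the 8 arrays in the series. U-CH1 controls, MUG-Chor1 controls and the treated cells all grew on gelatin in IMDM and RPMI medium with serum. Each line had 3 control arrays and 1 array of cells given recombinant TNF at 10 ng/mL, in 3 additions over 1 week. The TNF effect of a line is its TNF array minus the mean of its 3 controls, on the log2 scale, so 1 unit is a doubling. A positive difference therefore marks a gene whose response was higher in MUG-Chor1, and a negative one a gene whose response was higher in U-CH1.

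Chordoma is a rare tumour of the spine and skull base that resembles the embryonic notochord, and its cells express the notochord factor TBXT together with keratins and cartilage-type matrix genes. TNF binds its receptor TNFRSF1A and activates NF-kB, which switches on inflammatory genes and also its own inhibitors, such as NFKBIA and TNFAIP3. In many cell types prolonged TNF also raises interferon-stimulated genes, through interferon beta or through factors of the STAT and IRF families. These genes encode sensors of viral RNA, antiviral effectors and chemokines.

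Both lines carried their defining markers. TBXT, KRT8, KRT18, KRT19, SOX9 and CD24 lay above 3.05 on all 8 arrays. This value, called the floor below, is the 95th percentile of 2864 values of 358 olfactory receptor genes, which these cells are not known to use. The leukocyte markers PTPRC and CD3E and the endothelial markers CDH5 and VWF lay under it on all 8 arrays. Of the other leukocyte markers CD14 was above it on the U-CH1 TNF array (3.45) and LYZ on MUG-Chor1 control 3 (3.08), each on 1 array, and the broader markers KDR and THY1 lay above it on all 8. The fibroblast marker PDGFRB was above it on 5 arrays, U-CH1 control 1 (3.21) and every MUG-Chor1 array (3.43 to 4.33). FAP was above it on the MUG-Chor1 TNF array alone (5.71). Over 22395 genes the U-CH1 controls correlated with each other at 0.973 to 0.977 and the MUG-Chor1 controls at 0.973 to 0.986, with MUG-Chor1 control 3 at 0.973 to both others. The TNF array correlated with the controls of its line at 0.959 to 0.965 in U-CH1 and at 0.956 to 0.958 in MUG-Chor1. The labels do not say that the 3 controls of a line came from separate cultures, so the p-values measure the spread between these arrays, and each TNF effect rests on 1 treated array whose own spread is not known.

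Of 16986 genes tested, 90 (0.530%) differed between the lines in their TNF effect at an adjusted p under 0.05. The response was higher in MUG-Chor1 for 34 of them (0.200%) and lower for 56 (0.330%), against a median difference of 0.02 over all genes tested. Their differences had sizes of 2.04 to 7.48, with a median of 3.03 among the 34 and -2.73 among the 56. At an unadjusted p under 0.05 there were 1251 genes (7.36%), 580 higher and 671 lower. TNF itself passed the test for 216 genes (1.27%) in U-CH1 and for 489 (2.88%) in MUG-Chor1. The genes nearest the threshold were MME inside it, at an adjusted p of 0.0488, and EPB41L4B outside it, with a difference of -2.16 at 0.0547.

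Most of the divergence was a response that passed the test in a single line. A class of 30 genes led by RNASE2CP and EXOC1L fell in MUG-Chor1 and did not pass in U-CH1. A further 27 genes, led by TNFAIP6 and ATP6V0D2, rose in MUG-Chor1 without passing in U-CH1. In U-CH1, 20 genes led by CXCL10 rose and 7 led by ANKRD20A1 fell without passing in MUG-Chor1. FYB1 and JAG1 passed in both lines with opposite signs, and FDCSP passed in both as rises of unequal size. TMEM178B, CMIP and SLIT2 passed in neither line when each was tested by itself. Here and below, a rise or fall in a line alone means that the other line did not pass, not that its effect was absent. These class sizes moved with the controls used, to 11 to 50 for falls and 10 to 51 for rises in MUG-Chor1 alone, and to 8 to 28 for rises and 2 to 8 for falls in U-CH1 alone, and so did their order. Without MUG-Chor1 control 3 the rises in MUG-Chor1 numbered 51 and the falls 50. The point estimates of the 2 lines had opposite signs for 49 of the 90 genes. This share was not computed over all genes tested, and choosing genes by a large difference favours opposite signs. The count is therefore a description and not a trait of these genes.

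A gene counted as at the floor in a line when all 4 arrays of that line lay at or under 3.05. By this measure 26 of the 90 genes, CXCL10 and TNFAIP6 among them, were at the floor in 1 line. The other 64, such as XYLT1 and OAS1, were expressed in both. That class needs only 1 array above the floor in each line, so some of its genes lay near it. FDCSP was under the floor on all 6 controls, FYB1 on the U-CH1 controls, and F2RL2 and LCN1 on the MUG-Chor1 controls. With the floor 1 unit higher, 51 genes were expressed in both. Among all genes tested 11.2% were at the floor in 1 line, 76.5% were expressed in both and 12.3% were at the floor in both. MUG-Chor1 was the line at the floor for 10 of the 26, all of which rose in U-CH1. For the other 16 it was U-CH1, and of these 10 rose and 6 fell in MUG-Chor1. In 18 of the 26 all 6 controls were at the floor, so the gene was seen above it on a TNF array alone. Testing needed a value above 2.57 on any array. Only a TNF array took 16 of the 90 genes past that filter, as it did 303 of the 16986 tested. A high TNF value was what brought these 16 into the test, which limits their adjusted p-values below. They were CXCL10, CXCL11, UBD, BST2, FDCSP, NBEAP1, LGI2, SMCP and TAAR3P, and TNFAIP6, ATP6V0D2, FAP, MMP3, MORC1, CH25H and RSPO3.

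**Figure D1:**
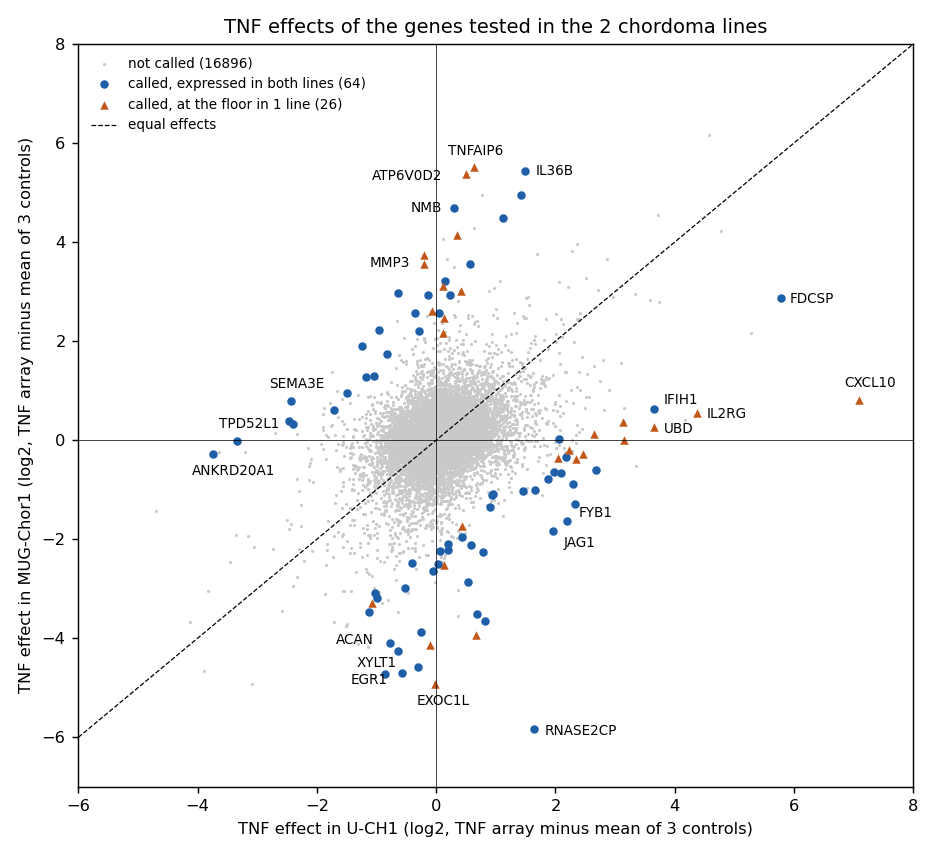
TNF effect in MUG-Chor1 (vertical axis, log2) against the TNF effect in U-CH1 (horizontal axis, log2) for the 16986 genes tested, 1 point per gene, with the 90 genes whose difference passed the test coloured by whether they were at the floor in 1 line (26) or expressed in both (64). CXCL10 lies far to the right near 0 on the vertical axis, TNFAIP6 and ATP6V0D2 lie high near 0 on the horizontal axis, and XYLT1 and EXOC1L lie low.

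The spread came from the 6 controls, so the calls moved when 1 of them was left out. The count of 90 became 39, 40 and 38 without U-CH1 control 1, 2 or 3, and 42 and 48 without MUG-Chor1 control 1 or 2. Without MUG-Chor1 control 3 it became 152, and all 90 genes were still called. In each of these 6 fits 26 genes stayed called. Those higher in MUG-Chor1 were TNFAIP6, ATP6V0D2, NMB, FAP, MORC1, MMP3, F2RL2, ANKRD20A1 and RRAD. Those lower in it were RNASE2CP, CXCL10, EXOC1L, XYLT1, PDK4, EGR1, CHRM2, IL2RG, FYB1, JAG1, TMEM163, UBD, NBEAP1, IFIH1, FDCSP, LINC02984 and NRIP1. The other 64 genes, which include OAS1, ACAN and CD24, missed the threshold in at least 1 fit, with adjusted p-values there of up to 0.13. For all 90 genes every TNF-minus-control difference of one line lay outside the range of the other line, as it did for 34.8% of all genes tested.

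CXCL10, a chemokine that draws activated T cells, had the largest difference among genes at the floor in 1 line. It read 1.94, 1.92 and 1.62 on the U-CH1 controls and 8.91 with TNF. On the MUG-Chor1 controls it read 1.69, 1.47 and 1.63, and 2.41 with TNF. The U-CH1 TNF array stood alone above the floor, and the rise there was 136-fold against 1.76-fold in MUG-Chor1. The difference was -6.27 ± 0.38 (SE, here and below; adjusted p = 0.000132). CXCL11, which acts on the same receptor as CXCL10, read 2.44, 1.87 and 1.69 on the U-CH1 controls and 5.14 with TNF, while MUG-Chor1 gave 1.89, 1.92, 1.96 and then 2.28. Its difference was -2.79 ± 0.45 (adjusted p = 0.0291). Folds from a level at the floor understate the change, and in bulk RNA more expressing cells cannot be told apart from more RNA per cell.

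IL2RG encodes the gamma chain shared by several interleukin receptors. Its U-CH1 controls lay near the floor at 3.15, 2.83 and 3.29 and the TNF array at 7.48, whereas MUG-Chor1 read 2.15, 2.26, 2.23 and 2.76 with TNF. Every MUG-Chor1 array was at the floor, and the difference was -3.84 ± 0.39 (adjusted p = 0.00229). UBD, a ubiquitin-like protein that marks others for the proteasome, went from 0.80, 1.01 and 0.39 to 4.39 in U-CH1. MUG-Chor1 gave 0.85, 0.57 and 0.54 for UBD and 0.91 with TNF, so again only the U-CH1 TNF array was above the floor (difference -3.40 ± 0.43, adjusted p = 0.0102).

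TNFSF10, the death ligand TRAIL, read 2.29, 2.37 and 2.15 in U-CH1 controls and 4.74 with TNF, and 2.50, 3.01, 2.30 and 2.33 on the MUG-Chor1 arrays (difference -2.74 ± 0.44, adjusted p = 0.0297). BST2, which tethers budding virus particles to the cell, read 1.81, 1.64 and 2.52 and then 4.33 in U-CH1, and 2.00, 1.64, 1.92 and then 1.47 in MUG-Chor1 (difference -2.72 ± 0.50, adjusted p = 0.0472). For both genes the U-CH1 TNF array alone was above the floor. The other 4 genes of this class were LGI2, SMCP and the pseudogenes NBEAP1 and TAAR3P, with differences of -3.14 for NBEAP1, -2.52 for LGI2, -2.42 for SMCP and -2.41 for TAAR3P.

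The other 10 genes that rose in U-CH1 alone were above the floor on at least 1 array of each line. HTR1D was under it on all 3 U-CH1 controls, and IFIT1 and TLR5 on all but 1 of them. IFIH1, which encodes the sensor of long double-stranded RNA MDA5, read 3.95, 4.23 and 3.86 on the U-CH1 controls and 7.67 with TNF. The MUG-Chor1 controls read 5.47, 5.55 and 5.91 and the TNF array 6.26. IFIH1 thus started 1.63 lower in U-CH1 and ended 1.41 higher there, with effects of 3.66 and 0.62 and a difference of -3.04 ± 0.41 (adjusted p = 0.0124). OAS1 and OAS2, which make the 2-5A signal that activates RNase L in infected cells, had the same order. OAS1 read 4.61, 5.36 and 5.33 and then 7.40 with TNF in U-CH1, against 6.34, 6.27, 6.34 and then 5.42 in MUG-Chor1 (difference -3.19 ± 0.46, adjusted p = 0.0186). OAS2 read 4.57, 4.66 and 5.51 and then 7.59, against 6.31, 6.81, 6.76 and then 6.03 (difference -3.27 ± 0.54, adjusted p = 0.0322). For both, the MUG-Chor1 controls lay above the U-CH1 controls, and the order of the lines was turned on the TNF arrays.

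IFIT1, which binds viral RNA ends, read 2.52, 3.00 and 3.39 on U-CH1 controls and 5.29 with TNF, and 3.65, 4.04 and 4.93 on MUG-Chor1 controls and 2.92 with TNF. The MUG-Chor1 TNF array was below every control of its line, but that effect of -1.29 did not pass (adjusted p = 0.246). The difference for IFIT1 was -3.61 ± 0.66 (adjusted p = 0.0472). SAMD9, an antiviral and growth-restraining factor, rose by 2.18 in U-CH1 from a control mean of 6.15, and its estimate in MUG-Chor1 was -0.34 from 7.86 (difference -2.52 ± 0.38, adjusted p = 0.0216). The other genes of this class were LINC02984, HTR1D, TLR5, IL22RA1 and RASSF4, with differences from -2.76 for LINC02984 to -2.04 for RASSF4.

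The 39 interferon-stimulated effector genes on the list, all tested, sat on 1 side. The difference was negative for 39 of 39, beside 8193 of the 16986 genes tested. Its median was -1.52 against 0.02 over all genes tested. OAS1, OAS2, IFIT1, BST2 and SAMD9 passed as lower in MUG-Chor1 and none passed as higher, beside 0.330% and 0.200% of all genes tested. The median effect was 1.30 in U-CH1, where 13 of the 39 rose against 0.913% of all genes tested, and -0.32 in MUG-Chor1, where none passed in either direction. The mean level of the list was 4.75, 4.82 and 5.19 on the U-CH1 controls and 6.32 with TNF, and 5.62, 5.77 and 6.08 on the MUG-Chor1 controls and 5.54 with TNF. The U-CH1 TNF array was thus the highest of the 8 for this list, and the MUG-Chor1 TNF array lay just under its controls. Without 1 control in turn the median ranged from -1.64 to -1.36, with at least 38 of 39 negative and 1 to 6 genes called.

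Differences within that list ran from -3.89 for IFI6 to -0.31 for HERC5. IFI6, an interferon-induced membrane protein, had the widest gap but did not pass (adjusted p = 0.0857). Its U-CH1 controls read 7.13, 6.48 and 8.48 and spread more widely than most. MX2 just missed the threshold (difference -2.18, adjusted p = 0.0547). IFITM2, an entry inhibitor, lay 5.52 higher in MUG-Chor1 controls than in U-CH1 controls and had effects of -0.22 and -0.58.

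**Figure D2:**
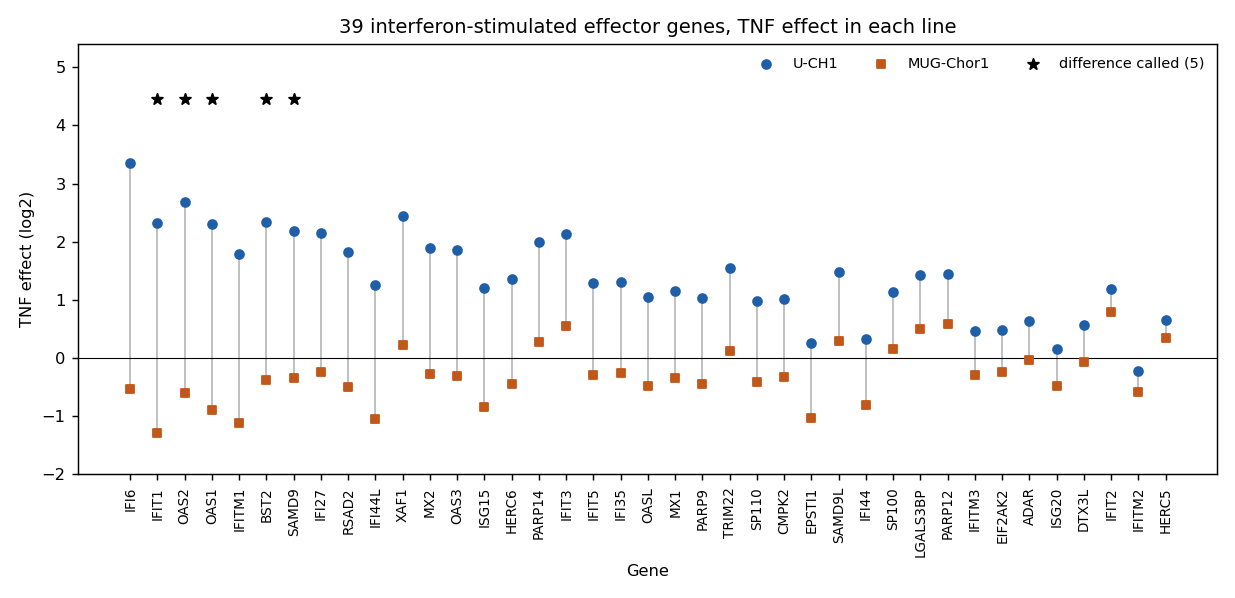
TNF effect (log2, TNF array minus mean of 3 controls) of the 39 interferon-stimulated effector genes in U-CH1 and in MUG-Chor1, ordered along the horizontal axis by the difference, with a line joining the lines' points of a gene and stars over the 5 genes whose difference passed. Each gene's U-CH1 point lies above its MUG-Chor1 point, from IFI6 with a difference of -3.89 to HERC5 with -0.31, and the MUG-Chor1 points lie between -1.29 (IFIT1) and 0.79 (IFIT2).

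Upstream of these effectors, none of the 18 tested genes of the list of interferon receptors, STAT and IRF factors passed, and their median difference was -0.35. IRF1 had a difference of -1.48 ± 0.64 (adjusted p = 0.632), IRF7 of -0.81 ± 0.54 (adjusted p = 0.906) and IRF9 of -1.06 ± 0.50 (adjusted p = 0.708). USP18, which damps interferon receptor signalling, had the smallest p of the list, with a difference of -2.01 ± 0.61 (adjusted p = 0.306). IFNB1, the gene of interferon beta, read 1.31 to 1.88 over the 8 arrays, at the floor on each, and was not tested. Of 15 interferon-gamma type targets only CXCL10 and CXCL11 passed, both lower in MUG-Chor1, and of 11 nucleic acid sensors only IFIH1 did. Among all genes tested 0.330% passed as lower. None of 25 antigen presentation genes passed, and their median effect of 0.73 in U-CH1 stood beside 0.52 in MUG-Chor1.

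The promoters of the genes that rose in U-CH1 alone were searched for the letters GAAANNGAA on both strands. This is the core of the interferon-stimulated response element, to which IRF and STAT complexes bind. The window ran from 250 bases before to 50 after the RefSeq start. A promoter was held for 16 of these 20 genes, and 6 of them (37.5%) had the core, namely BST2, CXCL10, IFIH1, IFIT1, SAMD9 and TNFSF10. Among 12422 genes tested with a promoter 6.27% had it, among the 20 with a promoter that rose in MUG-Chor1 alone 3 did (15.0%), and among the 23 that fell in MUG-Chor1 alone 1 did (4.35%). An NF-kB type match, GGGANNTTC, was in 3 of the 16 (18.8%), CXCL10, CXCL11 and IFIH1, and in 4.18% of all. A match is a description of the letters and not a measured site.

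CXCL10, IFIH1, IFIT1 and BST2 carry such matches at different distances from the start, so their sequences are shown to let the matches be read beside the values above. They are from RefSeq, build GRCh38.p14, 5′ to 3′ on the strand of the gene, and each ends at the base before the start. Capitals mark matches to GAAANNGAA or its reverse complement TTCNNTTTC.
CXCL10, chr4:76023498-76023738, minus strand: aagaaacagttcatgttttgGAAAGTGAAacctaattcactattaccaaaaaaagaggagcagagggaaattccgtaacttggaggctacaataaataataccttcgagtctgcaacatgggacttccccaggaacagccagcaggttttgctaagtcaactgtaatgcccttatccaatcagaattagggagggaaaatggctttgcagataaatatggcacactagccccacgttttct
IFIH1, chr2:162318685-162318868, minus strand: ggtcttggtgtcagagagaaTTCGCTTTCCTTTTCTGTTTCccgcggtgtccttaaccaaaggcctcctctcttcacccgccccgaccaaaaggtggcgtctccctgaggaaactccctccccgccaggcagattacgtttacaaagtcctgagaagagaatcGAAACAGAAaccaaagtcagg
IFIT1, chr10:89392488-89392622, plus strand: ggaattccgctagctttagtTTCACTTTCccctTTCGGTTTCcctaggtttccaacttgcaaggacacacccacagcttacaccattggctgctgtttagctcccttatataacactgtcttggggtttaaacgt
BST2, chr19:17405631-17405780, minus strand: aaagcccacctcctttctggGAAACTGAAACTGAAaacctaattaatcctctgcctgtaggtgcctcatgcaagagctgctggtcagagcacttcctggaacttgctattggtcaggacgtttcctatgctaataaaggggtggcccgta
The single CXCL10 match begins 221 bases before the start. IFIH1 holds 4 matches, some of them overlapping, of which the nearest begins 21 bases before the start. IFIT1 and BST2 hold 2 each, and the nearer begins 102 and 124 bases before the start.

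FDCSP, a small secreted protein first found in follicular dendritic cells, was the single diverging gene whose rise passed the test in both lines. It read 1.26, 1.50 and 0.96 on the U-CH1 controls and 7.01 with TNF, and 1.00, 1.18 and 1.12 on the MUG-Chor1 controls and 3.97 with TNF. Both TNF arrays were above the floor and all 6 controls under it. U-CH1 rose 54.8-fold and MUG-Chor1 7.31-fold (difference -2.91 ± 0.40, adjusted p = 0.0152).

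Among 22 tested NF-kB subunits, inhibitors and feedback genes none passed, and 1 did without MUG-Chor1 control 3. The U-CH1 effects had a median of 1.16 and the MUG-Chor1 effects one of 0.86, with a median difference of -0.47. TNFAIP3, which removes ubiquitin chains from the TNF receptor complex, read 4.75, 4.99 and 4.81 on the U-CH1 controls and 8.44 with TNF, and 4.65, 5.36 and 5.58 on the MUG-Chor1 controls and 8.03 with TNF. It rose in both lines, and the difference of -0.75 had an interval of -1.85 to 0.35 (95%; adjusted p = 0.906). NFKBIA, the inhibitor that holds NF-kB in the cytoplasm, rose by 2.00 in U-CH1 and had an estimate of -0.15 in MUG-Chor1. Its difference of -2.16 ± 0.47 did not pass (adjusted p = 0.0976). TNF RNA gave a difference of -1.44 ± 0.40 (adjusted p = 0.228). For the receptor TNFRSF1A the difference was -0.17, with an interval of -1.08 to 0.74.

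None of 13 chemokines in their own list passed. Without MUG-Chor1 control 1 a gene of the list passed as lower in MUG-Chor1, and without control 3 a gene passed as higher. CXCL6 had the smallest p of the list, with a difference of -2.31 (adjusted p = 0.0842). CXCL8, a chemokine for neutrophils, rose by 1.75 in U-CH1 and 1.62 in MUG-Chor1, and the interval of its difference was -1.06 to 0.80. CCL2, which draws monocytes, rose by 4.58 and 6.17, with a difference of 1.59 ± 0.93 (adjusted p = 0.843). Among 21 TNF receptors and death signalling genes TNFSF10 passed as lower in MUG-Chor1 and TNFRSF21 as higher, beside 0.330% and 0.200% of all genes tested.

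**Figure D3:**
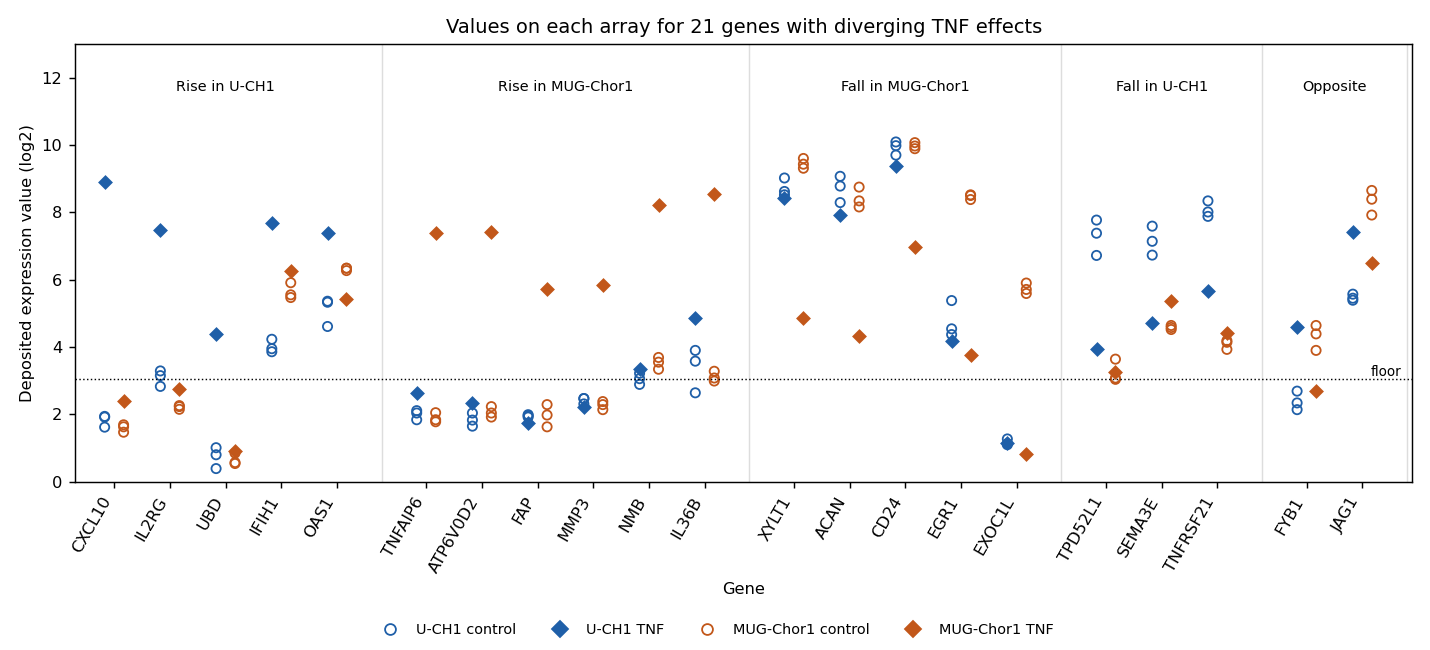
Deposited values (log2, vertical axis) on each of the 8 arrays for 21 of the diverging genes, with open circles for the 3 controls and a filled diamond for the TNF array of each line, and a dotted line at the floor of 3.05. CXCL10 is above the floor on the U-CH1 TNF array alone (8.91), TNFAIP6 on the MUG-Chor1 TNF array alone (7.40), and XYLT1 drops on the MUG-Chor1 TNF array alone (4.87).

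In MUG-Chor1 a different set rose from the floor. TNFAIP6, a secreted hyaluronan-binding protein named for its induction by TNF, read 1.84, 1.78 and 2.05 on the MUG-Chor1 controls and 7.40 with TNF. U-CH1 gave 2.04, 2.11 and 1.84 and then 2.63 with TNF, at the floor on all 4 arrays. The difference was 4.88 ± 0.38 (adjusted p = 0.000498), the largest among the 34 genes with a higher response in MUG-Chor1. ATP6V0D2, a subunit of the proton pump of lysosomes and of osteoclasts, read 2.23, 2.04 and 1.92 and then 7.43 in MUG-Chor1, and 1.83, 1.65, 2.04 and then 2.34 in U-CH1 (difference 4.87 ± 0.39, adjusted p = 0.000561). FAP, a membrane protease of activated fibroblasts, read 1.98, 2.29 and 1.63 and then 5.71 in MUG-Chor1, and 1.92, 1.99, 1.96 and then 1.75 in U-CH1 (difference 3.95 ± 0.42, adjusted p = 0.00336). For each of the 3 genes the MUG-Chor1 TNF array alone was above the floor.

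MMP3, the matrix protease stromelysin 1, read 2.38, 2.29 and 2.14 on the MUG-Chor1 controls and 5.84 with TNF, against 2.47, 2.47, 2.31 and 2.22 on the U-CH1 arrays (difference 3.77 ± 0.36, adjusted p = 0.00166). MORC1, a gene known from germ cells, read 2.03, 2.23 and 1.52 and then 6.07, against 1.67, 1.98, 1.72 and 2.14 (difference 3.79 ± 0.45, adjusted p = 0.00799). RRAD, a small GTPase that restrains calcium channels, read 2.23, 2.60 and 2.42 and then 5.53, against 2.55, 2.25, 2.30 and 2.48 (difference 3.00 ± 0.39, adjusted p = 0.0112). All 3 were above the floor on the MUG-Chor1 TNF array and on no other. The remaining genes of this class were LRRN3 (difference 2.67), the myeloid receptor TREM1 (2.61), the oxysterol-making enzyme CH25H (2.33) and the Wnt amplifier RSPO3 (2.06). FAP was the 1 gene called among 7 tested fibroblast markers, beside 0.200% of all genes tested called higher. The mean level of these markers was 3.60, 3.57 and 3.12 on the MUG-Chor1 controls and 4.20 with TNF, while U-CH1 had control levels of 2.83 to 2.99 and 3.01 with TNF. Among the markers fixed for fibroblasts PDGFRB read 3.43 and THY1 3.80 on the MUG-Chor1 TNF array, both below all 3 controls of that line, and the part of other cells in the FAP value was not tested.

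Another 17 genes that rose in MUG-Chor1 alone were expressed in both lines. NMB, the peptide neuromedin B, read 3.55, 3.34 and 3.69 on the MUG-Chor1 controls and 8.21 with TNF, and 2.89, 3.22, 3.06 and then 3.35 in U-CH1 (difference 4.39 ± 0.39, adjusted p = 0.000971). IL36B, an epithelial cytokine of the interleukin 1 family, read 3.08, 2.99 and 3.28 and then 8.55 in MUG-Chor1, and 2.64, 3.58, 3.90 and then 4.86 in U-CH1 (difference 3.94 ± 0.59, adjusted p = 0.0211). For NMB and IL36B the MUG-Chor1 TNF array was the highest of the 8 by more than 3 units. F2RL2, a receptor for thrombin, read 2.93, 2.81 and 2.98 and then 5.88 in MUG-Chor1, against 3.50, 3.51, 2.72 and then 2.60 in U-CH1 (difference 3.61 ± 0.48, adjusted p = 0.0112). INA, a neuronal intermediate filament protein, went from 4.16, 4.02 and 3.39 to 8.82 in MUG-Chor1 and from 5.16, 4.64 and 5.93 to 6.67 in U-CH1 (difference 3.53 ± 0.65, adjusted p = 0.0472).

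MME, the cell surface peptidase neprilysin, rose 22.5-fold in MUG-Chor1 to 8.63, against an estimate of 2.18-fold in U-CH1 (difference 3.37 ± 0.62). LOX, which crosslinks collagen, rose 7.62-fold in MUG-Chor1 and read 3.45 with TNF in U-CH1, just under its 3 controls of 3.47, 3.60 and 3.69. GREM1, an antagonist of BMP ligands, read 3.08, 3.63 and 3.02 and then 6.80 in MUG-Chor1, and 3.77, 3.82, 3.43 and then 4.24 in U-CH1 (difference 2.99 ± 0.45, adjusted p = 0.0211). ADM, a vasodilator peptide, rose 5.93-fold in MUG-Chor1, with a difference of 2.91 ± 0.49, and the microtubule protein MAP2 rose 9.27-fold, with a difference of 3.06 ± 0.56.

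For ENPP2 and PSAT1 the lines lay closer together with TNF than without it. ENPP2, the enzyme autotaxin that makes lysophosphatidic acid, read 6.25, 5.77 and 6.58 on the MUG-Chor1 controls and 8.44 with TNF. U-CH1 gave 9.07, 9.52 and 9.77 for ENPP2 and then 8.50, so the MUG-Chor1 TNF array stayed under the U-CH1 controls and the lines were 3.25 apart without TNF and 0.06 apart with it (difference 3.19 ± 0.52, adjusted p = 0.0315). With the mean of its 2 probe sets the ENPP2 difference was 2.44 and did not pass (adjusted p = 0.169). PSAT1, an enzyme of serine synthesis, read 5.49, 5.76 and 5.48 and then 7.78 in MUG-Chor1, against 7.42, 7.22, 7.72 and then 7.16 (difference 2.50 ± 0.41, adjusted p = 0.0315). TNC, the matrix protein tenascin C, went from 4.31, 4.02 and 3.42 to 6.85 in MUG-Chor1 and passed the U-CH1 level of 5.34 to 5.66 (difference 2.70 ± 0.48, adjusted p = 0.0421). BCAT1, which degrades branched-chain amino acids, rose 3.77-fold in MUG-Chor1 with an estimate of -1.25 in U-CH1 (difference 3.16 ± 0.49, adjusted p = 0.0244). TSPAN13, CACHD1 and ACO1 also rose in MUG-Chor1 alone, with differences of 2.55, 2.46 and 2.34.

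PSAT1 belongs to a list of 21 tested genes of the amino acid stress response driven by ATF4. Their differences were positive for all but STC2, with a median of 1.39, whereas 8193 of the 16986 genes tested had a negative one. PSAT1, SLC7A11 and ALDH1L2 passed as higher in MUG-Chor1, beside 0.200% of all genes tested. SLC7A11, the cystine and glutamate exchanger, read 6.84, 6.74 and 7.33 on the MUG-Chor1 controls and 9.53 with TNF, against 6.78, 7.28, 7.12 and then 7.10 in U-CH1 (difference 2.52 ± 0.45, adjusted p = 0.045). In MUG-Chor1 9 genes of the list rose, including TRIB3, DDIT4 and PHGDH, against 1.47% of all genes tested, and the median effect was 1.29. In U-CH1 STC2 rose, ALDH1L2 fell and the median effect was -0.20. The mean level of the list was 5.30 to 5.51 on the MUG-Chor1 controls and 6.70 with TNF, the highest of the 8 arrays, while U-CH1 had control levels of 5.60 to 5.94 and 5.67 with TNF. The median difference stayed at 1.31 to 1.49 when 1 control was left out, but the called genes became 0 without U-CH1 control 1 or 3 or MUG-Chor1 control 1 or 2, 2 without U-CH1 control 2 and 4 without MUG-Chor1 control 3.

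Among the 30 genes that fell in MUG-Chor1 and did not pass in U-CH1 were several of the notochord and cartilage state. XYLT1, which starts the sugar chains of proteoglycans, read 9.43, 9.60 and 9.31 on the MUG-Chor1 controls and 4.87 with TNF. U-CH1 gave 9.02, 8.52 and 8.62 and then 8.42. The MUG-Chor1 TNF array was the single low one of the 8, a 23.9-fold fall, and the difference was -4.28 ± 0.41 (adjusted p = 0.00166). ACAN, the large cartilage proteoglycan aggrecan, read 8.16, 8.34 and 8.75 and then 4.33 in MUG-Chor1, and 9.07, 8.29, 8.78 and then 7.93 in U-CH1 (difference -3.31 ± 0.50, adjusted p = 0.0211). HAPLN1, the link protein that fixes aggrecan to hyaluronan, read 6.55, 6.45 and 6.80 and then 3.13, against 8.13, 8.0, 8.42 and then 7.05 (difference -2.34 ± 0.40, adjusted p = 0.0358). Its relative HAPLN3 had a difference of -3.40 ± 0.57. For all 4 genes the MUG-Chor1 TNF array was the lowest of the 8 arrays. In U-CH1 the effects were -0.30 for XYLT1, -0.78 for ACAN, -1.13 for HAPLN1 and 0.54 for HAPLN3, and none passed.

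CD24, a surface protein of notochord and disc cells, read 9.97, 9.89 and 10.07 on the MUG-Chor1 controls and 6.98 with TNF, and 9.70, 9.98, 10.09 and then 9.39 in U-CH1 (difference -2.47 ± 0.38, adjusted p = 0.0238). KRT19, a keratin that marks chordoma, read 9.83, 9.86 and 9.76 and then 6.74, against 10.53, 10.45, 10.58 and then 9.49 (difference -2.05 ± 0.35, adjusted p = 0.0364). In U-CH1 the effects were -0.53 for CD24 and -1.03 for KRT19, and neither passed (adjusted p = 0.534 and 0.0901). CD24 and KRT19 were the called members among 18 notochord and chordoma markers, beside 0.330% of all genes tested called lower in MUG-Chor1. The list had a median effect of -1.05 in MUG-Chor1 and of -0.26 in U-CH1. The difference was negative for 13 of the 18, and 5 of the 18 had a MUG-Chor1 estimate above 0. In MUG-Chor1 7 of the 18 fell, against 1.41% of all genes tested, and in U-CH1 none passed. The called members of the list became 0 without U-CH1 control 1 or 2 or MUG-Chor1 control 1, and 1 without U-CH1 control 3 or MUG-Chor1 control 2. TBXT read 9.46, 9.44 and 9.40 on the MUG-Chor1 controls and 7.51 with TNF, and 9.56, 9.14, 9.75 and then 8.80 in U-CH1. It fell in MUG-Chor1, and its difference of -1.24 ± 0.41 did not pass (adjusted p = 0.385), nor did that of SOX9 at -1.67 (adjusted p = 0.214). ACAN and HAPLN1 were the called members among 23 cartilage matrix genes, again beside 0.330% of all genes tested called lower. The median difference of these 23 was -0.17, with 16 of the 23 negative. In MUG-Chor1 6 of these 23 genes fell and 2 rose, against 1.41% and 1.47% of all genes tested. Their called members became 0 without U-CH1 control 3, and 1 without U-CH1 control 1 or 2 or MUG-Chor1 control 1. Without MUG-Chor1 control 3 they became 5 (2 higher, 3 lower).

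EGR1, PDK4, TMEM163 and CDH10 fell in MUG-Chor1 from a control level above that of U-CH1. EGR1, an immediate early transcription factor, read 8.38, 8.52 and 8.50 on the MUG-Chor1 controls and 3.75 with TNF, and 4.54, 4.37, 5.38 and then 4.19 in U-CH1 (difference -4.14 ± 0.52, adjusted p = 0.0102). PDK4, a kinase that shuts off pyruvate oxidation, read 7.37, 7.62 and 8.24 and then 4.23, against 4.73, 5.06, 5.29 and then 5.70 (difference -4.19 ± 0.51, adjusted p = 0.00984). The MUG-Chor1 controls were the highest arrays for both genes and the MUG-Chor1 TNF array the lowest. TMEM163, a zinc transporter, read 7.39, 7.86 and 7.19 and then 3.61, against 3.34, 3.13, 3.63 and then 3.10 (difference -3.61 ± 0.46, adjusted p = 0.0106). CDH10, a cadherin, fell 26.4-fold in MUG-Chor1 to 3.53 and read 5.05 with TNF in U-CH1 (difference -3.87 ± 0.57, adjusted p = 0.02). FGL2, a secreted and membrane-bound protein related to fibrinogen, started lower in MUG-Chor1 (control means 6.46 and 8.59), fell 19.0-fold to 2.21 there and read 7.96 with TNF in U-CH1 (difference -3.61 ± 0.53, adjusted p = 0.0198).

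PTGS2, the inducible cyclooxygenase and a known TNF target, read 6.58, 7.21 and 7.21 on the MUG-Chor1 controls and 4.88 with TNF, and 6.22, 5.78, 5.78 and then 6.51 in U-CH1. It fell in MUG-Chor1, the U-CH1 estimate of 0.58 did not pass, and the difference was -2.70 ± 0.47 (adjusted p = 0.0384). ITGB4, a laminin receptor chain, fell 4.69-fold in MUG-Chor1 to 3.53, next to the 3.46 of the U-CH1 TNF array (difference -2.30 ± 0.42, adjusted p = 0.0472). NRIP1, a nuclear receptor corepressor, fell 5.71-fold in MUG-Chor1 and read 7.54 with TNF in U-CH1, within its controls of 7.42 to 7.58 (difference -2.54 ± 0.36, adjusted p = 0.0172). Further falls in MUG-Chor1 were those of CDON, NFATC2, FLRT3, DGKA, SLC15A5, COBLL1, ERC1 and RN5S191, with differences of -3.04 for RN5S191 to -2.09 for COBLL1.

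In 6 of the falls U-CH1 was at the floor throughout. EXOC1L read 5.90, 5.71 and 5.59 on the MUG-Chor1 controls and 0.81 with TNF, against 1.13, 1.27, 1.10 and then 1.14 in U-CH1 (difference -4.90 ± 0.37, adjusted p = 0.000498). CHRM2, the M2 muscarinic receptor, read 6.54, 6.77 and 7.44 and then 2.79, against 2.27, 2.36, 1.80 and then 2.05 (difference -4.03 ± 0.53, adjusted p = 0.0112). HHLA2, a B7-family ligand of T cells, read 5.98, 4.84 and 6.23 and then 1.75, against 2.42, 2.11, 2.04 and then 2.85 (difference -4.60 ± 0.65, adjusted p = 0.0169). In these 3 genes the MUG-Chor1 TNF array had come down to the floor, where U-CH1 already lay. The other 3 were CYP4F12 and the small RNA genes SNORA70F and RNU5F-3P.

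RNASE2CP and RNASE2 gave the largest and the fifth largest negative difference, at -7.48 ± 0.63 (adjusted p = 0.000756) and -4.47 ± 0.72 (adjusted p = 0.03). RNASE2CP read 9.21, 8.71 and 9.85 on the MUG-Chor1 controls and 3.42 with TNF, and 4.54, 5.45, 4.76 and then 6.56 in U-CH1. The first is a pseudogene of the ribonuclease A cluster and the second encodes a ribonuclease of eosinophils. Their sequences are similar enough that probes may not tell them apart, so which locus gave the signal is uncertain.

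The 7 genes that fell in U-CH1 alone all had a higher mean in U-CH1 controls than in MUG-Chor1 controls. For ALDH1L2 this control gap did not pass (limma, adjusted p = 0.101). The MUG-Chor1 controls of TPD52L1, CAPN6 (3.25 to 3.36) and LCN1 (2.64 to 2.93) lay at or near the floor of 3.05, where a fall could hardly show. TPD52L1 read 6.72, 7.38 and 7.77 on the U-CH1 controls and 3.95 with TNF, and 3.04, 3.08, 3.64 and then 3.25 in MUG-Chor1 (difference 3.34 ± 0.57, adjusted p = 0.0342). SEMA3E, a guidance ligand of vessels and nerves, read 6.73, 7.59 and 7.14 and then 4.71, against 4.64, 4.58, 4.52 and then 5.38 (difference 3.24 ± 0.47, adjusted p = 0.0186). TNFRSF21, death receptor 6 of the TNF receptor family, read 8.01, 7.88 and 8.34 and then 5.67, against 4.19, 4.14, 3.93 and then 4.42 (difference 2.74 ± 0.40, adjusted p = 0.0195). For all 3 the U-CH1 TNF array was clearly under its controls. CAPN6, a calpain-family protein, fell 5.53-fold in U-CH1 with a difference of 2.85, and LCN1, a lipid carrier of tears, fell 3.28-fold with a difference of 2.33.

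ALDH1L2, a mitochondrial folate enzyme on the ATF4 list, read 5.22, 5.63 and 5.36 on the U-CH1 controls and 3.90 with TNF, and 4.69, 4.70, 5.17 and then 5.81 in MUG-Chor1 (difference 2.46 ± 0.43, adjusted p = 0.0373). ANKRD20A1 had the largest fall of the 7 in U-CH1, 13.3-fold, and a difference of 3.46 ± 0.46 (adjusted p = 0.0112). It has near-identical copies, so its probe set cannot be tied to 1 locus.

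FYB1 and JAG1 passed in both lines in opposite directions. Of these 2 genes 1 met that description without U-CH1 control 1 or MUG-Chor1 control 2, and 0 without U-CH1 control 2. JAG1, a ligand of Notch receptors, read 5.57, 5.39 and 5.45 on the U-CH1 controls and 7.43 with TNF, and 8.65, 8.39 and 7.92 on the MUG-Chor1 controls and 6.49 with TNF. It rose 3.88-fold in U-CH1 (adjusted p = 0.0144) and fell 3.56-fold in MUG-Chor1 (adjusted p = 0.0098), and the difference was -3.79 ± 0.44 (adjusted p = 0.00707). FYB1, an adaptor protein of T cell receptor signalling, read 2.14, 2.34 and 2.69 and then 4.59 in U-CH1, and 3.90, 4.64, 4.39 and then 2.68 in MUG-Chor1 (difference -3.83 ± 0.48, adjusted p = 0.0102). For both genes the controls of MUG-Chor1 lay above those of U-CH1, and the TNF arrays had the opposite order. JAG1 was the 1 gene called among 14 of the Notch pathway, whose median difference was -0.32, beside 0.330% of all genes tested called lower.

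Among 37 tested genes of G2/M and mitosis none passed, yet the difference was negative in 37 of 37, with a median of -1.15. Among all 16986 genes tested it was negative in 8193. KIF20A, a kinesin of cytokinesis, had the largest at -2.86 (adjusted p = 0.306). KIF20A and ASPM fell in MUG-Chor1, against 1.41% of all genes tested. The mean level of the list was 5.86, 5.28 and 6.64 on the MUG-Chor1 controls and 4.76 with TNF, and 6.10, 5.75 and 6.30 on the U-CH1 controls and 6.01 with TNF. The MUG-Chor1 controls spread over more than 1 unit, and without control 3 of that line the median difference was -0.82 with 31 of 37 negative. For 30 genes of G1/S and DNA replication none passed and the median was 0.07. Among 11 metallothionein and zinc genes none passed, with a median of 0.85. MT1G, a metal-binding protein, had a difference of 3.94 (adjusted p = 0.17), and 2 of the 11 passed without MUG-Chor1 control 3.

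Lists of other cell types and of general state showed few calls. None of 8 leukocyte, 6 endothelial or 8 housekeeping genes passed, with median differences of -0.37, -0.34 and 0.14. Mean levels of the leukocyte list were 3.23 to 3.62 on the 6 controls and 3.74 and 3.49 on the U-CH1 and MUG-Chor1 TNF arrays. Of 13 unfolded protein response genes and 15 of cholesterol and lipid synthesis none passed either, with medians of 0.40 and 0.06.

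**Figure D4:**
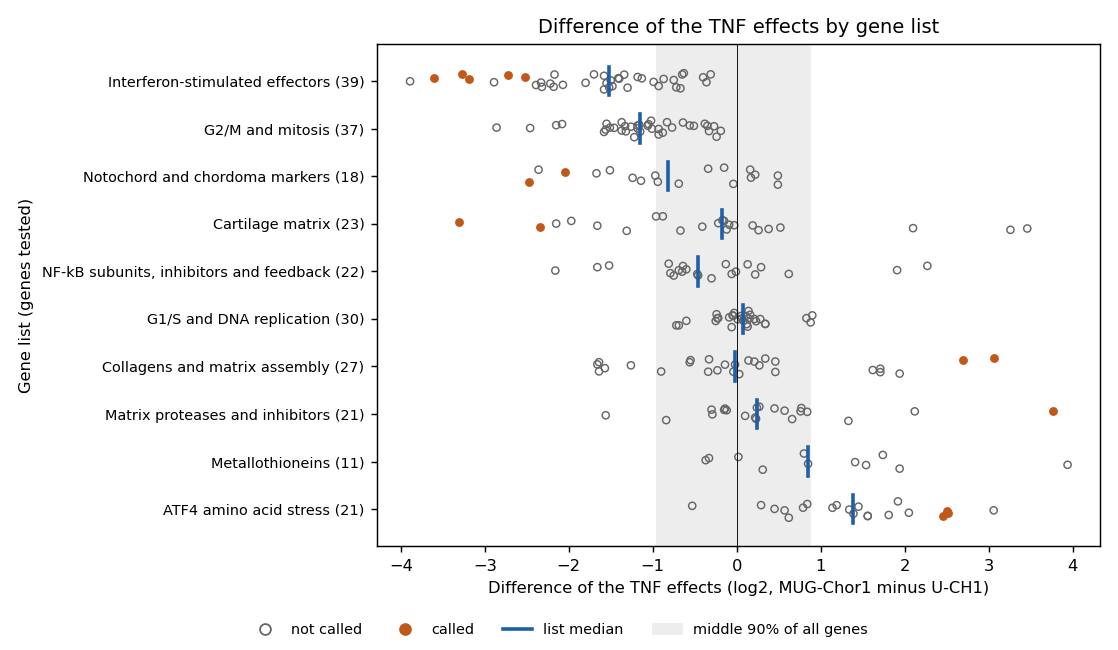
Difference of the TNF effects (log2, MUG-Chor1 minus U-CH1) for the tested genes of 10 gene lists, 1 point per gene and a bar at the median of each list, with called genes filled and the 5th to 95th percentile of all genes (-0.96 to 0.89) shaded. All 39 interferon-stimulated effectors lie left of 0, around a median of -1.52, and all but 1 of the 21 ATF4 genes lie right of it, around 1.39.

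The divergence was set against the gap that already separated the lines. The control lines differed for 50 of the 90 genes, 14 of the 34 with a higher response in MUG-Chor1 and 36 of the 56 with a lower one, whereas 18.9% of all genes tested differed between control lines, 10.3% higher and 8.57% lower in MUG-Chor1. The lines lay closer together on the TNF arrays than on the controls for 35 of the 90, such as ENPP2, EGR1 and TNFRSF21, against 44.5% of all genes tested. For the other 55, such as CXCL10, TNFAIP6 and XYLT1, they lay farther apart. The control levels are part of both quantities, so this count is a description.

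**Figure D5:**
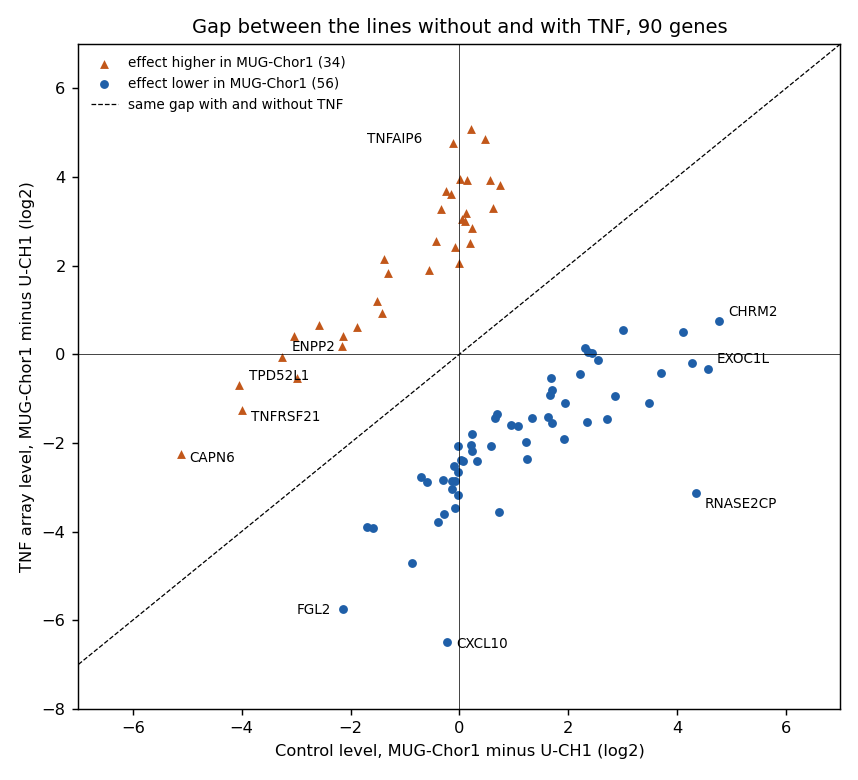
Level on the TNF arrays, MUG-Chor1 minus U-CH1 (vertical axis, log2), against the same gap between control means (horizontal axis, log2) for the 90 diverging genes, with a dashed line where both gaps are equal. RNASE2CP goes from 4.34 to -3.14 and JAG1 from 2.85 to -0.94, whereas CXCL10 goes from -0.23 to -6.50 and ENPP2 from -3.25 to -0.06.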

How the data were processed

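RNA of 8 samples was measured on whole-transcript arrays. Per the submitters' processing notes, RMA and Transcriptome Analysis Console were used (versions not given). The authors deposited 1 value per probe set, treated here as log2 from the use of RMA and the range of 0.0648 to 12.7; the sources used here do not state the log base. RMA usually equalises array distributions, which hides any shift common to the whole transcriptome. Scan dates were not used here, so TNF and a batch that coincides with it cannot be told apart.

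Of 53617 probe sets, 23871 had 1 symbol and were used, 1842 had several and 27904 were not listed in the supplied annotation, and 22569 were matched to RefSeq (GRCh38.p14), which updated 90 symbols. They cover 22395 genes, and for the 632 with several the brightest on average was taken. No pseudocount was added. Genes above 2.57, the median of all values, on at least 1 array were tested.

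limma 3.58.1 (R 4.3.3; lmFit, eBayes) fitted 4 group means over 8 arrays with 4 residual degrees of freedom. Two-sided p-values were adjusted by Benjamini-Hochberg over 16986 genes, with a threshold of 0.05. Each line's lone TNF array is taken to vary as the controls do. Scripts were tested on simulated data, in which 4% of differences of 1 log2 unit, 52% of 2 units and 98% of 3 units were called. A gene that did not pass may therefore still differ.

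The members and lists were chosen with earlier results of these data known. Named were the 10 largest differences each way among genes expressed in both lines, the 6 largest each way among genes at the floor in 1 line, genes with opposite called effects, and up to 4 called members per list (or the one with the smallest p). TNF, TNFRSF1A, NFKBIA, TNFAIP3, IFNB1, IRF1, IRF7, IRF9, CXCL10 and TBXT were always named. Other genes were named after their values were seen. Alternatives changed the filter, probe sets, normalization, variance model, array weights, floor, replicate block and each control left out.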

Additional observations from a re-analysis of the deposited data

Results flagged for a closer look

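In 90 genes the TNF effect differed between the lines by the test of the difference itself (limma, adjusted p under 0.05). The values below are differences on the log2 scale, MUG-Chor1 minus U-CH1, for those of them named under the rule above.

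The response was higher in MUG-Chor1 by 4.88 for TNFAIP6, 4.87 for ATP6V0D2, 4.39 for NMB, 3.95 for FAP, 3.94 for IL36B, 3.79 for MORC1, 3.77 for MMP3 and 3.61 for F2RL2. Smaller positive differences were 3.53 for INA, 3.46 for ANKRD20A1, 3.37 for MME, 3.34 for TPD52L1, 3.24 for SEMA3E, 3.19 for ENPP2, 3.16 for BCAT1 and 3.06 for LOX. The least were 3.00 for RRAD, 2.99 for GREM1, 2.91 for ADM, 2.74 for TNFRSF21, 2.70 for TNC, 2.52 for SLC7A11, 2.50 for PSAT1 and 2.46 for ALDH1L2.

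The response was lower in MUG-Chor1 in the following genes. The largest sizes were -7.48 for RNASE2CP, -6.27 for CXCL10, -4.90 for EXOC1L, -4.60 for HHLA2, -4.47 for RNASE2, -4.28 for XYLT1, -4.19 for PDK4 and -4.14 for EGR1. Next came -4.03 for CHRM2, -3.87 for CDH10, -3.84 for IL2RG, -3.83 for FYB1, -3.79 for JAG1, -3.61 for FGL2, -3.61 for IFIT1 and -3.61 for TMEM163. Then followed -3.40 for UBD, -3.31 for ACAN, -3.27 for OAS2, -3.19 for OAS1, -3.04 for IFIH1, -2.91 for FDCSP, -2.79 for CXCL11 and -2.74 for TNFSF10. The smallest sizes were -2.72 for BST2, -2.70 for PTGS2, -2.47 for CD24, -2.34 for HAPLN1, -2.30 for ITGB4 and -2.05 for KRT19. No technical or biological explanation for any of them was tested.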

How the results depend on the processing

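The count of 90 genes, 34 higher and 56 lower in MUG-Chor1, stayed within 1.5 times under no filter (75), a filter at the floor (90), the mean of a gene's probe sets (87), quantile normalization (81), median centring (91), a variance trend (92), robust eBayes (90) and array weights (135). With array weights the genes higher in MUG-Chor1 became 57 and those at the floor in 1 line 41, against 26. Leaving out 1 control gave 38 to 152 genes, 12 to 64 of them higher, 22 to 88 lower and 14 to 43 at the floor in 1 line. The upper end of each range came without MUG-Chor1 control 3. With fewer controls the residual degrees of freedom fell from 4 to 3. With the floor at the median of all values or 1 unit higher, 20 or 35 genes were at the floor in 1 line. The percentage higher in MUG-Chor1 was 37.8, and 31.6 to 43.6 over the settings. No sign among the named genes reversed under the alternatives run. Of the 54 named genes called, 10 missed the threshold without the filter, 5 after quantile normalization, 3 after centring, 2 (ENPP2 and MME) with mean probe sets, and 18 to 24 without 1 of the controls other than MUG-Chor1 control 3. Control numbers as a replicate block gave 81 genes, 67 of them among the 90, 32 higher and 49 lower, and 7 named genes missed the threshold. Same-numbered controls of the lines correlated at 0.04, -0.06 and 0.16 in their deviations, and the other pairs at -0.15 to 0.14. With 3 controls per line this cannot settle whether same-numbered controls shared a batch. Probe sets with several symbols or none were fitted apart, and 0 of 15238 passed (limma, smallest adjusted p 0.0775), with 696 at an unadjusted p under 0.05. Array values carry no depth, and precision is limited by the number of arrays.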
